A study of Mus musculus with 110 samples.

Results

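Interscapular brown adipose tissue (iBAT) of mice that received methionine restriction and cold together (MetR_CE) was compared with that of mice that received neither (Ctrl_RT), by RNA sequencing of polyadenylated RNA. The members of the comparison are 13 of the 110 libraries of the series, 7 of MetR_CE and 6 of Ctrl_RT, chosen as the iBAT libraries whose titles name these groups. All mice were wild-type C57BL/6N males, 16 weeks old at the end, housed singly, and all ate purified diets without cysteine (0%). Ctrl_RT mice ate a control diet with 0.86% methionine for 7 days at 22 °C. MetR_CE mice ate a diet with 0.12% methionine for 7 days at 22 °C and then spent an additional day on it with 24 h at 4 °C, so that 1 more day of diet and the cold cannot be told apart in this comparison. The groups with a single stimulus, cold on the control diet (Ctrl_CE, 6 libraries) and MetR at 22 °C (MetR_RT, 7 libraries), enter the same fit and are used only to show where MetR_CE differs from each. Each library is 1 mouse and the whole depot, and no cells were sorted. Library numbers in the labels follow the groups, and the labels do not say whether they give an order of preparation. If they do, that order and the group cannot be told apart.

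Libraries of Ctrl_RT held 22536731 to 27806620 counts and those of MetR_CE 12672686 to 29465562. The tissue label was checked against markers: the 13 brown adipocyte markers summed to 9325 to 12233 normalized CPM, which scale each count to the TMM-adjusted library size, in Ctrl_RT and 16476 to 19994 CPM in MetR_CE, and none of them was at 0 in a group. Most of this sum was Ucp1. By the thresholds given below, 4 of the 13 were called higher, 1 lower and 8 not, with a median log2 fold change of 0.12. Markers of other cells were present, at 1133 to 1291 and 1239 to 1396 CPM for endothelial cells, 827 to 1214 and 438 to 801 CPM for preadipocytes and fibroblasts, and 85.3 to 142 and 42.2 to 66.2 CPM for macrophages. In whole tissue, fewer cells of a type and less RNA per cell cannot be told apart. Skeletal muscle markers, from muscle next to the depot or within it, ran from 38.5 to 2792 CPM in Ctrl_RT and from 40.97 to 1034 CPM in MetR_CE. Replicate 5 of Ctrl_RT held the highest muscle level and also the liver transcript Alb at 38.2 CPM, against at most 2.66 CPM in the other 12 libraries, a gene that was looked at after its values were seen. A treatment tag of 3 libraries (replicate 1 of each group other than Ctrl_RT) disagrees with the title on the group, and the titles were followed. Replicate 1 of Ctrl_CE carries the tag of MetR_RT, so grouping by the tag places it among the MetR_RT mice. By title, the 31 thermogenic effectors named below summed to 23947 to 26762 CPM in Ctrl_CE, this library included. In MetR_RT they summed to 17054 to 19142 CPM. For the other libraries which label is right was not tested.

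Brown fat burns fuel for heat. Noradrenaline released on its adipocytes in the cold raises cyclic AMP, which switches on lipolysis and the transcription of genes such as that of the uncoupling protein UCP1, through which mitochondria leak protons and give heat in place of ATP. Lack of an amino acid is sensed by the integrated stress response, in which the transcription factor ATF4 drives genes of amino acid uptake and synthesis. Interferon-stimulated genes, complement and collagens come in large part from the immune and stromal cells that lie among the adipocytes.

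A gene was called when its edgeR quasi-likelihood test gave a Benjamini-Hochberg adjusted p under 0.05 and it differed at least 1.5-fold in either direction. Of 23915 genes tested, 3506 (14.7%) were called in MetR_CE against Ctrl_RT, 1042 (4.36%) higher and 2464 (10.3%) lower. The median absolute log2 fold change of called genes was 0.92 for higher and 1.06 for lower ones, and 143 and 409 of them reached 4-fold. Of the genes called higher, 761 had a mean of at least 1 CPM, and of those called lower 1398. For 3701 genes (15.5%) the 13 libraries of both groups did not overlap, and 687 of these (2.87% of all tested) were called higher and 1093 (4.57%) lower. The median log2 fold change over all tested genes was -0.10, and -0.02 over the 12709 genes with a mean of at least 1 CPM. Values with ± in the text are log2 fold changes with their standard errors unless SD is named, and adjusted p are from this fit throughout. Without the 6 libraries with muscle markers of at least 1000 CPM (3 of them in this comparison), a setting added after the data were seen, 998 genes were called higher and 2023 lower.

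**Figure D1:**
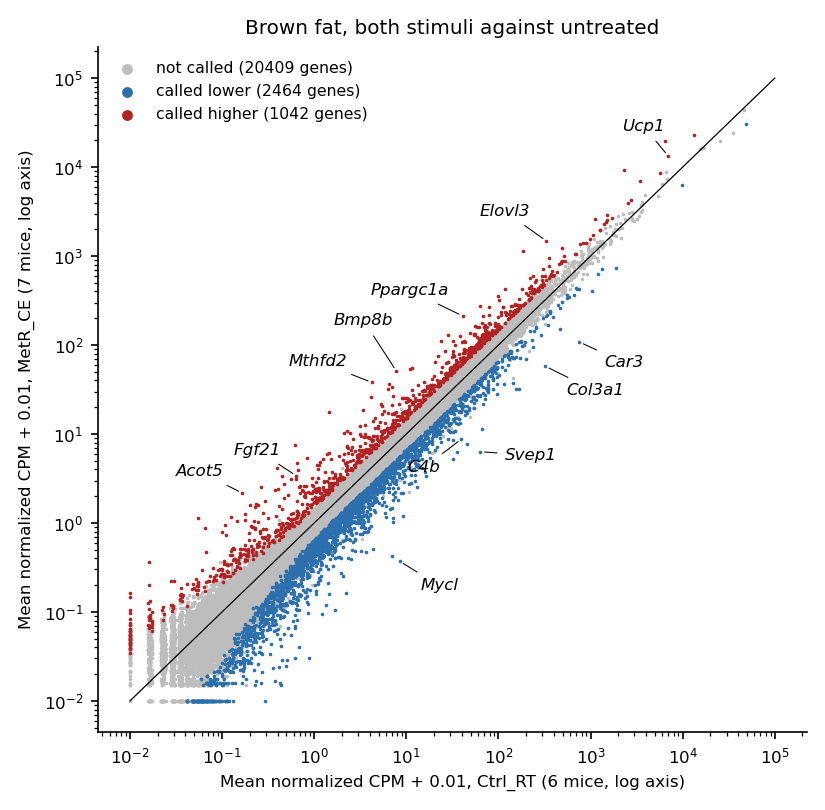
Mean normalized CPM of every tested gene in the 6 Ctrl_RT mice (x axis) against the 7 MetR_CE mice (y axis), both on log axes after adding 0.01, with the line of equal level. Genes called higher (1042) lie above the line and genes called lower (2464) below it, with Ucp1 at the upper right and Mycl farthest below the line among the labelled genes.

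Short stretches upstream of members that the results turn on are shown before their values, since response elements known from these pathways stand in them. They come from the RefSeq promoters of the mouse (GRCm38.p6, 250 bases before to 50 after a start site), which were found for 13698 of the tested genes. The cAMP response element (TGACGTCA), searched on both strands, was in 3.1% of all these promoters, in 3.3% of those of genes called higher and in 1.46% of those of genes called lower. Dio2 and Prkar1a, both called higher, hold it, here in capitals, at chr12:90739101-90739158 on the minus strand and chr11:109650875-109650932 on the plus strand:
Dio2: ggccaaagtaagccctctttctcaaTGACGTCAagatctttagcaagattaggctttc
Prkar1a: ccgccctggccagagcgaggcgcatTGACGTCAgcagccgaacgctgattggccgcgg

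The element bound by ATF4 with C/EBP partners (TGATGNAA) was in 2.99% of all promoters, in 4.56% of those called higher and in 3.93% of those called lower, and in 13 of the 34 promoters found for the integrated stress response list. Within that list, 4 of 13 promoters of genes called higher and 2 of 2 of genes called lower held the element. It stands in capitals in Fgf21 (chr7:45615597-45615654), Atf3 (chr1:191183411-191183468) and Nupr1 (chr7:126625548-126625605), all on the minus strand, of which the former pair rose and Nupr1 fell:
Fgf21: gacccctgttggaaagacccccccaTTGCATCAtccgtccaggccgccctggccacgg
Atf3: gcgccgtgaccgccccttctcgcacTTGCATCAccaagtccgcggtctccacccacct
Nupr1: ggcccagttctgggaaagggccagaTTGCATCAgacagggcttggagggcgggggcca

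The interferon-stimulated response element (GAAA, any 2 bases, then GAAA, on either strand) was in 3.85% of all promoters, in 2.04% of those of genes called higher and in 6.27% of those of genes called lower. Of the 19 promoters found for genes of the interferon and antigen presentation list that were called lower, 10 held it, as did 12 of the 28 found for the whole list. Shown are Rsad2 (chr12:26456538-26456597, minus strand), Gbp3 (chr3:142559974-142560039, plus strand, with 2 overlapping matches), Igtp (chr11:58199497-58199555, plus strand) and B2m (chr2:122147523-122147582, plus strand), with the matches in capitals:
Rsad2: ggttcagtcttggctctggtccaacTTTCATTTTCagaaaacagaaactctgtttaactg
Gbp3: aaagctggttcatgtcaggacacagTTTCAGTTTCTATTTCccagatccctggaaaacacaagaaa
Igtp: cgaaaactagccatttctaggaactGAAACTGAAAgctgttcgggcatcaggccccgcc
B2m: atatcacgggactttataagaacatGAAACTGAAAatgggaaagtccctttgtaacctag

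These matches are a description of letters, not of binding. The E-box (CACGTG) was in 10.5% of all promoters, 13.2% of those called higher and 8.36% of those called lower, the sterol regulatory element (TCACNCCAC) in 1.47%, 1.89% and 1.33%, and the element of oestrogen-related receptors (TCAAGGTCA) in 0.343%, 0.629% and 0.19%.

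Of 31 tested thermogenic effectors, 12 rose, 1 fell and 18 were not called, with a median log2 fold change of 0.39. Ucp1, which uncouples respiration from ATP synthesis, was at 5819 to 8446 CPM (median 6903) in Ctrl_RT and 12111 to 14813 CPM (median 13682) in MetR_CE. The groups did not overlap, and the log2 fold change was 0.94 ± 0.08 (adjusted p = 1.48e-10), a 1.92-fold difference. Ppargc1a, the coactivator of mitochondrial biogenesis, was at 21.1 to 59.1 CPM (median 42.7) in Ctrl_RT and 153 to 355 CPM (median 177) in MetR_CE (log2 fold change 2.37 ± 0.21, adjusted p = 4.2e-10). Dio2, which converts thyroxine to its active form inside the cell, was at 44.8 to 124 CPM (median 70.7) in Ctrl_RT and 181 to 333 CPM (median 263.5) in MetR_CE (1.76 ± 0.25, adjusted p = 1.67e-06). For both genes every MetR_CE mouse lay above every Ctrl_RT mouse.

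The largest fold changes of the list were those of Gpr3, a receptor that signals to adenylyl cyclase without a ligand, and Bmp8b, a secreted factor that sensitizes brown fat to noradrenaline. Gpr3 was at 0.0367 to 0.301 CPM (median 0.215) in Ctrl_RT and 0.667 to 2.83 CPM (median 1.51) in MetR_CE, and rose by 3.04 ± 0.35 on the log2 scale (adjusted p = 5.17e-08). Bmp8b was at 3.48 to 18.1 CPM (median 6.70) in Ctrl_RT and 37.05 to 68.0 CPM (median 53.8) in MetR_CE (2.6995 ± 0.35, adjusted p = 4.01e-07). Neither gene overlapped between the groups, and the highest Ctrl_RT value of Bmp8b, 18.1 CPM, stood above the next, 6.99 CPM. Esrra and Esrrb, oestrogen-related receptors that drive mitochondrial genes, rose by 0.70 ± 0.05 and 1.13 ± 0.17, and Kcnk3, a potassium channel of brown adipocytes, by 0.78 ± 0.08, all without overlap. Gk, glycerol kinase, rose from a median of 221 to 609 CPM (1.33 ± 0.18, adjusted p = 1.04e-06). Ckb, the creatine kinase of a futile creatine cycle, was at 23.3 to 70.7 CPM (median 24.7) in Ctrl_RT and 57.8 to 147 CPM (median 84.4) in MetR_CE (1.42 ± 0.26, adjusted p = 9.14e-05), and its groups overlapped because 1 Ctrl_RT mouse held 70.7 CPM. Irf4, a transcription factor that acts with Ppargc1a, was the gene of the list that fell (-1.11 ± 0.31, adjusted p = 0.00538). Among the genes not called were the lineage genes Prdm16 (-0.21 ± 0.09) and Ebf2 (-0.05 ± 0.11) and the brown marker Cidea (-0.16 ± 0.06).

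**Figure D2:**
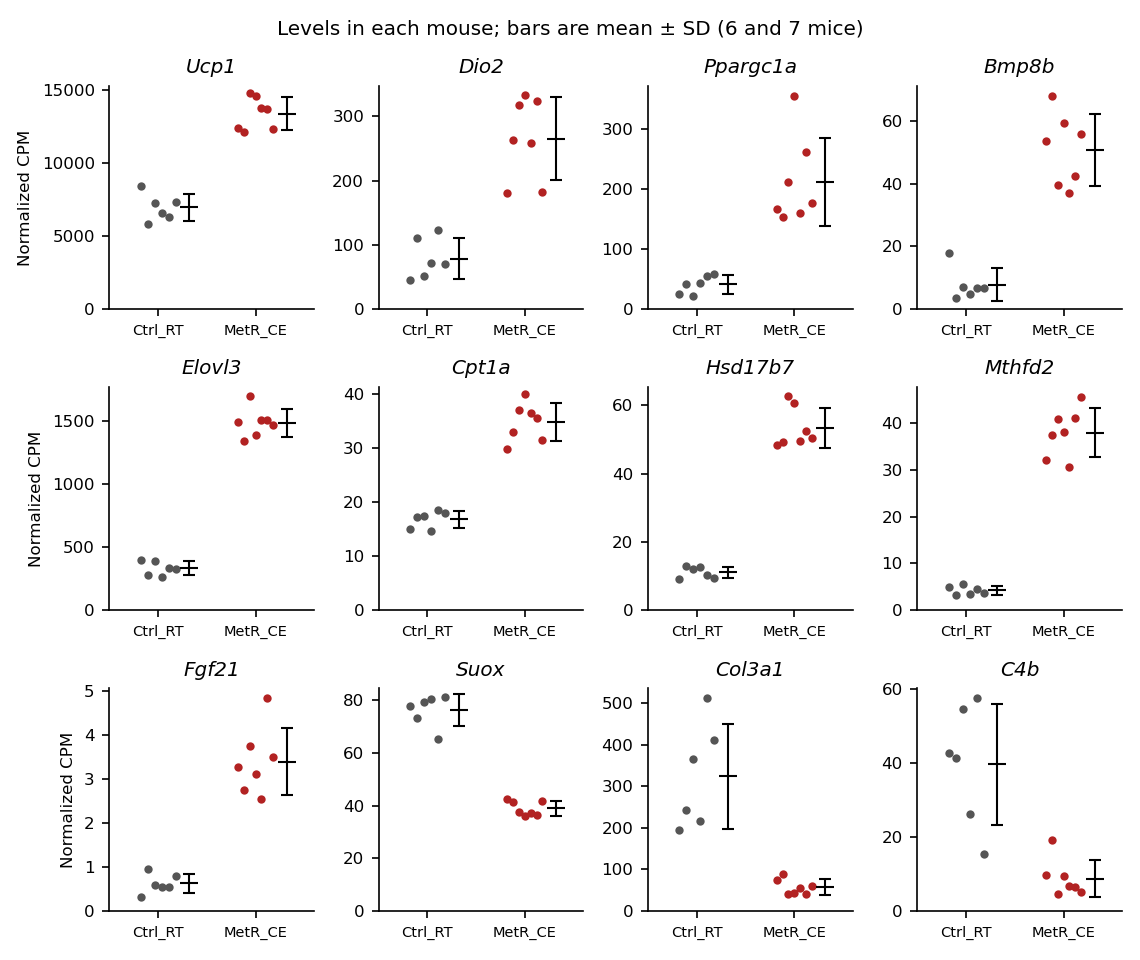
Normalized CPM of 12 genes in each mouse (points) of Ctrl_RT and MetR_CE, with the mean and SD of each group. The MetR_CE mice lie above all Ctrl_RT mice for Ucp1 to Fgf21 and below them for Suox and Col3a1, while 1 MetR_CE mouse overlaps Ctrl_RT for C4b.

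The cAMP pathway moved in both directions. Of 48 tested genes of adrenergic and cAMP signalling, 6 rose, 12 fell and 30 were not called, with a median log2 fold change of -0.002. Adrb3, the main adrenergic receptor of brown adipocytes, was at 224 to 429.8 CPM in Ctrl_RT and 212 to 343 CPM in MetR_CE, with overlap, and was not called (-0.32 ± 0.15, adjusted p = 0.103). Among the enzymes that make and break down cAMP, Adcy3, an adenylyl cyclase, was at 219.6 to 472 CPM (median 283.2) in Ctrl_RT and 589.5 to 825 CPM (median 695) in MetR_CE (1.24 ± 0.17, adjusted p = 1.26e-06), and Adcy10, the soluble cyclase, rose by 1.19 ± 0.16. Adcy5, another cyclase, went the other way and was at 10.01 to 19.5 CPM (median 15.9) in Ctrl_RT and 1.83 to 6.60 CPM (median 2.95) in MetR_CE (-2.03 ± 0.21, adjusted p = 7.16e-09). The groups overlapped for none of these cyclases. Pde7b, a phosphodiesterase that degrades cAMP, rose by 1.76 ± 0.20, and Prkar1a, a regulatory subunit of protein kinase A, by 0.74 ± 0.06. Npr3, the clearance receptor for natriuretic peptides, was at 36.2 to 95.5 CPM (median 54.3) in Ctrl_RT and 226 to 338 CPM (median 269.8) in MetR_CE (2.14 ± 0.20, adjusted p = 1.81e-09), again without overlap.

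Several receptors that couple to inhibition of adenylyl cyclase were lower. Hcar1, the lactate receptor that restrains lipolysis, was at 19.1 to 42.99 CPM (median 38.6) in Ctrl_RT and 4.09 to 8.54 CPM (median 6.21) in MetR_CE (-2.49 ± 0.19, adjusted p = 3.04e-11). Its relative Hcar2 for hydroxybutyrate and niacin (-2.35 ± 0.24), the prostaglandin EP3 receptor Ptger3 (-1.07 ± 0.14) and the adenosine A1 receptor Adora1 (-0.76 ± 0.11) fell as well. No MetR_CE mouse reached the lowest Ctrl_RT mouse for any of these receptors. The immediate early gene Fos (-2.699 ± 0.60) and Rgs2, a brake on G protein signalling (-1.77 ± 0.40), also fell, but with overlapping groups. Sik1, a kinase induced by cAMP, rose by 1.01 ± 0.24, from a Ctrl_RT range of 20.8 to 137 CPM that 1 low mouse widened.

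Fuel handling moved by step. Of 21 tested genes of lipolysis and the lipid droplet, 3 rose and 2 fell, where 4.36% of all genes tested rose and 10.3% fell. The share of this list that fell is thus near that over all genes, as it is in both fatty acid lists below. The main lipases Pnpla2 (-0.28 ± 0.05) and Lipe (-0.08 ± 0.05) were not called. Plin2, which coats lipid droplets, was at 1315 to 1754 CPM (median 1468) in Ctrl_RT and 2672 to 3005 CPM (median 2891) in MetR_CE (0.95 ± 0.07, adjusted p = 1.69e-11), whereas Plin4, another coat protein, fell by 0.73 ± 0.10, both without overlap. Of 45 genes of fatty acid uptake and oxidation, 10 rose and 4 fell (median log2 fold change 0.12). Lpl, which frees fatty acids from circulating lipoproteins, was at 2615 to 4697 CPM (median 3424) in Ctrl_RT and 5980 to 8051 CPM (median 6649) in MetR_CE (1.01 ± 0.11, adjusted p = 4.05e-08). Acsl5, which activates fatty acids with coenzyme A, was at 933 to 1264 CPM (median 1139) in Ctrl_RT and 2368 to 2801 CPM (median 2676) in MetR_CE (1.23 ± 0.08, adjusted p = 2.09e-12). The smallest MetR_CE value of each lay above every Ctrl_RT value. Cpt1a, a carnitine transferase at the gate of mitochondrial oxidation, rose from a low level, 14.7 to 18.6 CPM (median 17.3) in Ctrl_RT and 29.9 to 40.1 CPM (median 35.6) in MetR_CE (1.05 ± 0.11, adjusted p = 2.28e-08). Bdh1, which interconverts ketone bodies, rose by 1.903 ± 0.36, Acot4, an acyl-CoA thioesterase of peroxisomes, by 1.44 ± 0.17 and Slc27a2, which activates very long chain fatty acids, by 0.73 ± 0.16. Those that fell include Angptl4, an inhibitor of lipoprotein lipase (-0.87 ± 0.17), the fatty acid transporter Slc27a1 (-0.94 ± 0.11) and Eci1, which handles unsaturated chains in oxidation (-0.83 ± 0.06, adjusted p = 3.72e-12). All 6 of these genes were free of overlap.

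Synthesis of fatty acids and triglycerides held 10 genes that rose and 3 that fell of 34. Elovl3, an elongase of very long chains typical of cold-exposed brown fat, was at 264.9 to 397 CPM (median 328) in Ctrl_RT and 1341 to 1694 CPM (median 1486) in MetR_CE (2.16 ± 0.13, adjusted p = 7.12e-13). Every MetR_CE mouse held more than 3 times the level of the highest Ctrl_RT mouse. Elovl6, which elongates palmitate, rose by 0.77 ± 0.07, Gpam, the acyltransferase that starts triglyceride assembly, by 0.83 ± 0.09, Scd3, a desaturase, by 2.33 ± 0.25, and Gpd1, the glycerol-3-phosphate dehydrogenase, by 0.77 ± 0.06. Dgat2, which closes triglyceride synthesis, was at 1409 to 2249 CPM (median 1930) in Ctrl_RT and 538 to 868 CPM (median 739) in MetR_CE (-1.37 ± 0.14, adjusted p = 4.05e-09). Srebf1, the transcription factor of lipogenic genes, fell by 0.82 ± 0.09, and neither gene overlapped.

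In cholesterol synthesis and uptake 14 of 25 genes were called higher and 1 lower, and a median log2 fold change of 0.61. Hsd17b7, which acts late in the sterol pathway, was at 9.24 to 12.8 CPM (median 11.1) in Ctrl_RT and 48.5 to 62.7 CPM (median 50.4) in MetR_CE (2.27 ± 0.12, adjusted p = 1.36e-13). The groups were apart. Fdps, Idi1, Cyp51 and Sqle, further steps of the pathway, rose by between 1.17 and 1.38 on the log2 scale. Fdft1, the squalene synthase that stands between these steps, was the gene called lower, at 73.8 to 139 CPM (median 106) in Ctrl_RT and 51.7 to 66.4 CPM (median 56.5) in MetR_CE (-0.94 ± 0.15, adjusted p = 1.14e-05).

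In glucose uptake and glycolysis 8 of 36 genes rose and 1 fell. Tpi1, the triosephosphate isomerase, was at 333 to 414 CPM (median 389) in Ctrl_RT and 634 to 712 CPM (median 683) in MetR_CE (0.83 ± 0.05, adjusted p = 8.53e-13). Hk1, which phosphorylates glucose, rose by 0.90 ± 0.08, Pfkl, the liver type phosphofructokinase, by 0.73 ± 0.07, Ldha, which makes lactate, by 0.67 ± 0.06, and Pkm, the pyruvate kinase, by 0.65 ± 0.06, none with overlap. Slc2a3, a glucose transporter, fell by 0.67 ± 0.17. The muscle enzymes of the list, Eno3 (-1.21 ± 0.55) and Pgam2 (-1.31 ± 0.55), were not called and ranged widely within Ctrl_RT (7.07 to 66.1 and 1.63 to 22.8 CPM), where the muscle markers did too. Of 62 respiratory chain genes, 61 were not called and the median log2 fold change was -0.04. At an unadjusted edgeR p under 0.05, 12 were higher and 15 lower. The summed level of the list was 145874 to 165284 CPM in Ctrl_RT and 126396 to 141863 CPM in MetR_CE, without overlap. The gene called, the mitochondrially encoded mt-Nd4, was at 8826 to 10983 CPM (median 9581) in Ctrl_RT and 5901 to 7019 CPM (median 6224) in MetR_CE (-0.61 ± 0.07, adjusted p = 1.72e-07), and it was below the fold threshold (-0.57) without replicate 1 of Ctrl_RT. The mitochondrial genes mt-Co2, mt-Co3 and mt-Atp6 have near-identical copies in the nuclear genome and their counts are uncertain.

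**Figure D3:**
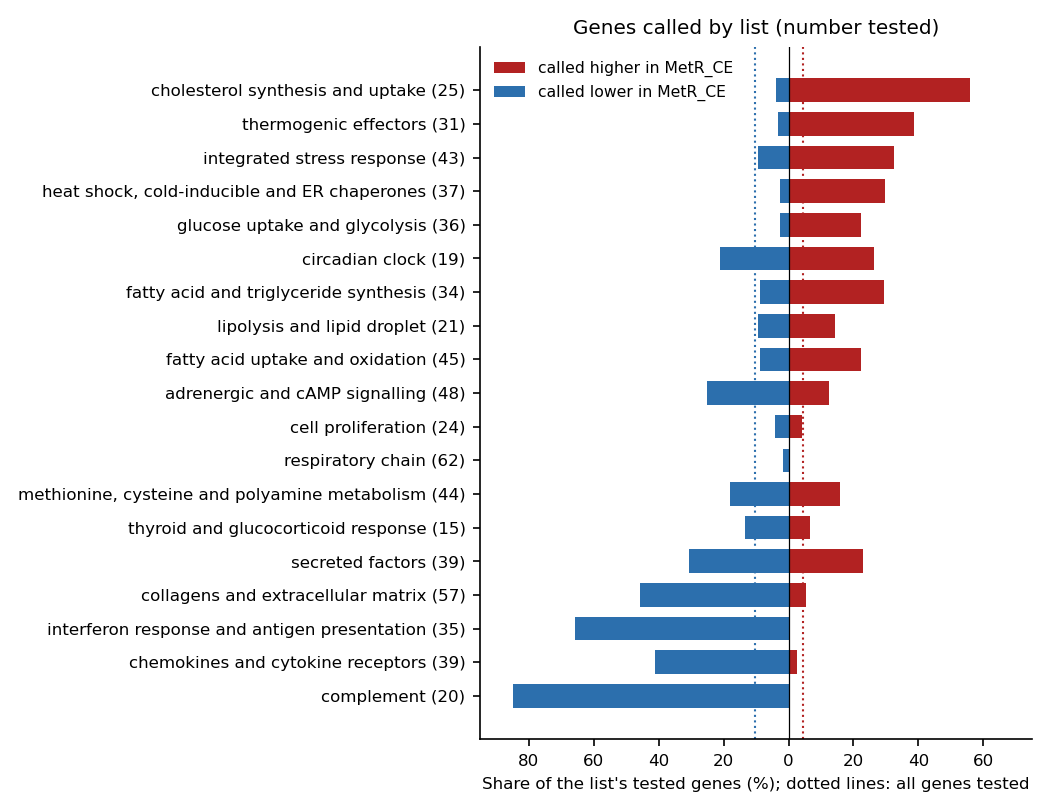
Share of the tested genes of each list that was called higher (right) or lower (left) in MetR_CE against Ctrl_RT, with the number tested beside each list and dotted lines at the shares over all genes, 4.36% higher and 10.3% lower. Cholesterol synthesis and uptake (14 of 25 higher) and complement (17 of 20 lower) reach farthest in either direction.

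The integrated stress response list held 14 genes that rose and 4 that fell of 43, with a median log2 fold change of 0.39. The share that fell is near the 10.3% over all genes tested. Atf4, its central transcription factor, was at 36.3 to 90.6 CPM (median 79.5) in Ctrl_RT and 114 to 157 CPM (median 132) in MetR_CE (0.87 ± 0.14, adjusted p = 8.34e-06). Mthfd2, a mitochondrial enzyme of folate metabolism, had the largest change of the list, at 3.18 to 5.56 CPM (median 4.10) in Ctrl_RT and 30.6 to 45.6 CPM (median 38.05) in MetR_CE (3.16 ± 0.39, adjusted p = 1.91e-07). For both, the lowest MetR_CE mouse exceeded the highest Ctrl_RT mouse. Psat1, of serine synthesis, rose by 1.85 ± 0.33, Aldh18a1, of proline synthesis, by 1.21 ± 0.31, Slc3a2, the heavy chain of amino acid transporters, by 1.45 ± 0.10 and Slc38a2, a transporter of neutral amino acids, by 0.81 ± 0.13. Atf3 and Atf5, transcription factors downstream of ATF4, rose by 1.76 ± 0.25 and 1.41 ± 0.18. Asns, asparagine synthetase and a common readout of amino acid lack, was higher in every MetR_CE mouse (38.9 to 54.7 CPM (median 45.04) in Ctrl_RT and 60.2 to 80.2 CPM (median 64.6) in MetR_CE) but below the fold threshold (0.56 ± 0.12, adjusted p = 0.000483), and Ddit3, the factor CHOP, was not called (0.04 ± 0.08). Nupr1, a stress cofactor (-1.27 ± 0.12), and Eif4ebp1, a repressor of cap-dependent translation (-0.64 ± 0.04), were among those that fell.

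Fgf21 and Gdf15, stress hormones that both belong to this list, were low in these libraries. Fgf21 was at 0.330 to 0.945 CPM (median 0.573) in Ctrl_RT and 2.54 to 4.84 CPM (median 3.26) in MetR_CE (2.42 ± 0.21, adjusted p = 2.7e-10). Gdf15 was at 0.0782 to 0.688 CPM (median 0.142) in Ctrl_RT and 0.983 to 2.67 CPM (median 1.47) in MetR_CE (2.89 ± 0.35, adjusted p = 1.2e-07), and its log2 fold change was 3.61 without replicate 2 of Ctrl_RT. The groups overlapped for neither hormone. As shown above, the promoter of Fgf21 holds the element of ATF4, as do those of Atf3 and Nupr1, which moved in opposite directions.

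Among the 44 tested genes of methionine, cysteine and polyamine metabolism, 7 rose and 8 fell. Those that rose include genes of the antioxidant response, Srxn1 (0.93 ± 0.08), Txnrd1 (0.71 ± 0.05) and Gclm, a subunit of the enzyme that starts glutathione synthesis (0.70 ± 0.10), together with the taurine transporter Slc6a6 (0.74 ± 0.07), the polyamine enzyme Odc1 (0.71 ± 0.07) and Gnmt, which uses methyl groups from S-adenosylmethionine (0.87 ± 0.20). None of these overlapped between groups, unlike Nnmt, another consumer of methyl groups (6.41 to 21.5 CPM (median 8.23) in Ctrl_RT and 9.63 to 43.02 CPM (median 22.5) in MetR_CE; 1.18 ± 0.31, adjusted p = 0.00372), which was not called with the groups set by the treatment tag (1.39, adjusted p = 0.152). Among the genes that fell, Suox, sulfite oxidase, was at 65.2 to 81.1 CPM (median 78.6) in Ctrl_RT and 35.9 to 42.6 CPM (median 37.5) in MetR_CE (-0.97 ± 0.06, adjusted p = 2.25e-12). Sqor, which oxidizes sulfide, was at 51.1 to 65.7 CPM (median 58.6) in Ctrl_RT and 23.04 to 32.04 CPM (median 28.3) in MetR_CE (-1.06 ± 0.07, adjusted p = 3.07e-12). Tst, a sulfurtransferase of the same route (-1.17 ± 0.12), the methanethiol oxidase Selenbp1 (-0.86 ± 0.12) and Gamt, of creatine synthesis (-1.34 ± 0.17), fell too, and the groups overlapped for none of these. The call of Mat1a, the liver form of methionine adenosyltransferase, rested on replicate 5 of Ctrl_RT (4.95 CPM), and without that mouse it had a log2 fold change of -1.16 (adjusted p = 0.456).

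Of 37 chaperone and cold-inducible genes 11 were called higher, 1 lower and 25 were not called. Hsp90aa1, the inducible HSP90, was at 176 to 513 CPM (median 276.8) in Ctrl_RT and 516 to 749.6 CPM (median 586) in MetR_CE (1.01 ± 0.16, adjusted p = 8.93e-06). Hspa8 (0.76 ± 0.16) and its partner Bag3 (0.67 ± 0.07) of the cytosol, and Canx (0.70 ± 0.06) and Manf (0.85 ± 0.10) of the endoplasmic reticulum, rose too, all without overlap. The endoplasmic chaperone Hspa5 (0.36 ± 0.07) and the cold-inducible RNA binding proteins Rbm3 (0.26 ± 0.10) and Cirbp (-0.42 ± 0.16) did not reach the fold threshold.

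In the circadian clock 5 of 19 genes rose and 4 fell. Those that rose, Dbp (2.03 ± 0.34), Ciart (1.45 ± 0.30), Per2 (1.32 ± 0.37), Nr1d2 (0.92 ± 0.20) and Nr1d1 (0.73 ± 0.09), are driven by CLOCK and its partners at E-boxes. Npas2, a partner in the activating arm, was at 3.81 to 10.7 CPM (median 5.18) in Ctrl_RT and 0.955 to 2.18 CPM (median 1.46) in MetR_CE (-1.94 ± 0.24, adjusted p = 2.47e-07), without overlap, and Arntl (-0.86 ± 0.21) and Cry1 (-0.90 ± 0.18) fell as well. The study's methods give 1 window of morning hours for all mice and no times by group. The part of sampling time in these values was not tested.

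Of 39 tested secreted factors 9 rose and 12 fell, with a median log2 fold change of -0.35. Besides Bmp8b, Fgf21 and Gdf15, the factors that rose include Kng2, a kininogen (50.98 to 74.3 CPM (median 66.9) in Ctrl_RT and 160.5 to 189 CPM (median 173) in MetR_CE; 1.43 ± 0.09, adjusted p = 8.53e-13). Igfbp3, a binding protein of insulin-like growth factors, rose by 1.63 ± 0.16, Cxcl14, a chemokine made by active brown fat, by 1.31 ± 0.21 and Fgf9 by 1.75 ± 0.23. Igf1 was at 10.8 to 20.6 CPM (median 12.3) in Ctrl_RT and 3.31 to 6.50 CPM (median 3.68) in MetR_CE (-1.58 ± 0.19, adjusted p = 2.02e-07). Fst, the activin antagonist follistatin (-1.55 ± 0.18), Ngfr, the neurotrophin receptor that stands on this list (-2.06 ± 0.19), and Lep, leptin (-1.83 ± 0.39), fell, the last with overlap. Among 15 genes of thyroid and glucocorticoid response Sgk1 rose (0.92 ± 0.13) and Angptl4 and Zbtb16 (-1.31 ± 0.35) fell. The called share of this list, 20%, is near the 14.7% over all genes tested.

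Of 57 genes of collagens and extracellular matrix 26 fell and 3 rose, with a median log2 fold change of -0.42. Col3a1, a fibrillar collagen, was at 195 to 512 CPM (median 304) in Ctrl_RT and 40.3 to 88.9 CPM (median 54.7) in MetR_CE (-2.49 ± 0.28, adjusted p = 3.28e-08), a 5.60-fold lower level. Col1a1 was at 90.7 to 296.3 CPM (median 153) in Ctrl_RT and 22.5 to 48.6 CPM (median 29.4) in MetR_CE (-2.36 ± 0.29, adjusted p = 2.35e-07), and Col1a2 fell by 2.27 ± 0.26. The groups did not overlap for any of these collagens. Mmp2, a gelatinase, fell by 1.30 ± 0.17. The exceptions were P4ha1 (1.04 ± 0.17) and Loxl1 (0.74 ± 0.10), which modify collagen and elastin, and the protease Adamts1 (1.17 ± 0.12), all higher without overlap. Of the 12 preadipocyte and fibroblast markers 10 fell (median log2 fold change -0.86), Pdgfra among them (-0.85 ± 0.15), and their summed level was 827 to 1214 CPM in Ctrl_RT and 438 to 801 CPM in MetR_CE. Their part in the result on collagens was not tested. Without the libraries of high muscle level 20 matrix genes fell.

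Complement genes were lower almost throughout, 17 of 20 with none higher and a median log2 fold change of -1.05. C3, the central component, was at 1034 to 1371 CPM (median 1212) in Ctrl_RT and 554 to 775 CPM (median 612) in MetR_CE (-0.95 ± 0.11, adjusted p = 4.3e-08). C4b was at 15.4 to 57.5 CPM (median 41.96) in Ctrl_RT and 4.72 to 19.1 CPM (median 6.63) in MetR_CE, and 1 MetR_CE mouse lay within the range of Ctrl_RT (-2.15 ± 0.35, adjusted p = 1.61e-05). C2 (-1.72 ± 0.26) and C1qa, made by macrophages (-1.11 ± 0.19), were apart between groups. The receptor C3ar1 fell by 0.65 ± 0.21, and was not called without the libraries of high muscle level (-0.57, adjusted p = 0.0711), in which setting 13 genes of the list fell.

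Interferon response and antigen presentation showed the same direction in 23 of 35 genes, with none higher and a median log2 fold change of -0.70. Irf1, a transcription factor induced by interferon, fell by 0.86 ± 0.11. Igtp, an interferon-induced GTPase, was at 7.35 to 13.8 CPM (median 12.2) in Ctrl_RT and 3.42 to 5.03 CPM (median 3.68) in MetR_CE (-1.55 ± 0.27, adjusted p = 3.4e-05). Gbp3, of the guanylate-binding proteins (-1.14 ± 0.17), Psmb9, of the immunoproteasome (-1.25 ± 0.17), and Tap1, the peptide transporter (-1.13 ± 0.17), fell likewise. B2m, the light chain of class I molecules on nearly every cell, was at 158 to 203 CPM (median 167) in Ctrl_RT and 94.3 to 125 CPM (median 106) in MetR_CE (-0.71 ± 0.14, adjusted p = 0.000232), and H2-Ab1, of class II, fell by 1.002 ± 0.21. All of these were free of overlap. Rsad2, an antiviral gene, fell by 1.04 ± 0.17 with overlapping groups. Igtp, Gbp3, B2m and Rsad2 are those whose response elements are printed above.

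Of 39 chemokines and cytokine receptors 16 fell and 1 rose, with a median log2 fold change of -0.93. Ccr2, the receptor that brings monocytes into tissue, was at 2.46 to 4.76 CPM (median 3.31) in Ctrl_RT and 0.637 to 1.51 CPM (median 1.08) in MetR_CE (-1.62 ± 0.24, adjusted p = 3.46e-06). Csf1r, the receptor on which macrophages depend (-1.09 ± 0.18), and Cxcl9, induced by interferon (-1.25 ± 0.19), fell without overlap too. Cxcl12, made by stromal and endothelial cells, was the gene that rose (0.85 ± 0.13). Ccl8 was near 0 in most mice (0.156 to 1.65 CPM (median 0.349) in Ctrl_RT and 0 to 0.191 CPM (median 0.0456) in MetR_CE), and it was not called without the libraries of high muscle level (-2.30, adjusted p = 0.0544). The macrophage markers moved with these lists: 9 of 12 fell (median log2 fold change -1.07), among them Lyz2 (-1.33 ± 0.23), Mrc1 (-1.31 ± 0.19) and Adgre1, which encodes F4/80 (-1.05 ± 0.28), and no marker was at 0. The summed level of the macrophage markers did not overlap between the groups, as given above. Its part in the complement, interferon and chemokine genes called lower was not tested.

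Of 12 endothelial markers only Cldn5, a tight junction protein, was called (-1.12 ± 0.29, with overlap). T and B cell markers summed to 5.98 to 9.10 CPM in Ctrl_RT and 10.4 to 33.1 CPM (median 16.9) in MetR_CE, and the antibody chain Ighm was at 2.90 to 5.31 CPM (median 4.88) in Ctrl_RT and 7.19 to 30.2 CPM (median 14.7) in MetR_CE (1.73 ± 0.33, adjusted p = 0.000139), without overlap, while Cd79a fell (-0.73 ± 0.25). The sum in MetR_CE was thus mostly Ighm. Only 2 of the 12 markers had a log2 fold change above 0, and the median of the list was -0.14. Erythroid markers were called lower for 5 of 6 genes, among them the globin Hbb-bt (-1.03 ± 0.28). In cell proliferation Ccnd1, a cyclin, rose (1.59 ± 0.27), Cenpa, of the centromere, fell (-0.90 ± 0.16), and the other 22 genes were not called. Of 7 tested Schwann cell and nerve markers 0 were called by edgeR, and 2 had an unadjusted p under 0.05. Of 20 skeletal muscle markers Myl1 was called (-1.01 ± 0.28), of 10 smooth muscle and pericyte markers Cspg4 (-0.62 ± 0.11), and of 4 markers of ciliated and glandular epithelium Tekt1 (-2.09 ± 0.59) and Muc1 (-0.97 ± 0.31), all lower.

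The largest rises among called genes of at least 1 CPM with no overlap were led by Acot5, an acyl-CoA thioesterase (0.0397 to 0.301 CPM (median 0.145) in Ctrl_RT and 1.19 to 3.74 CPM (median 1.97) in MetR_CE; 3.77 ± 0.43, adjusted p = 5.26e-08). Sgk2, a kinase related to Sgk1, was at 0.635 to 2.25 CPM (median 1.40) in Ctrl_RT and 10.5 to 29.2 CPM (median 17.9) in MetR_CE (3.62 ± 0.31, adjusted p = 2.4e-10). Pimreg rose by 3.59 ± 0.22, Tacr2, a tachykinin receptor, by 3.42 ± 0.27, and the secreted phospholipase Pla2g2e by 2.84 ± 0.28. Among abundant genes Gmpr, a reductase of guanine nucleotides, was at 128 to 356 CPM (median 145) in Ctrl_RT and 731 to 1437 CPM (median 1150) in MetR_CE (2.63 ± 0.25, adjusted p = 2.4e-09), a 6.21-fold rise. Mfsd2a, a carrier of lysolipids, rose by 2.66 ± 0.55, with 1 high Ctrl_RT mouse (12.3 CPM), and by 3.40 without replicate 1 of Ctrl_RT.

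The largest falls were led by Mycl, a MYC family factor (2.38 to 20.6 CPM (median 5.57) in Ctrl_RT and 0.127 to 0.695 CPM (median 0.351) in MetR_CE; -4.47 ± 0.49, adjusted p = 2.78e-08). Svep1, a matrix protein of stromal cells, was at 43.01 to 103 CPM (median 59.0) in Ctrl_RT and 4.52 to 11.4 CPM (median 5.41) in MetR_CE (-3.31 ± 0.34, adjusted p = 7.27e-09), and Car3, an abundant carbonic anhydrase of adipocytes, at 532 to 1387 CPM (median 612) in Ctrl_RT and 43.8 to 240.5 CPM (median 87.0) in MetR_CE (-2.81 ± 0.33, adjusted p = 6.83e-08). Each of these was lower in every MetR_CE mouse, as the rule that named them requires. Others were Gdf5, a bone morphogenetic protein (-3.01 ± 0.44), Map2k6, a kinase upstream of p38 (-2.97 ± 0.36), Mc2r, the corticotropin receptor (-2.57 ± 0.34), Cyp2e1, a cytochrome P450 (-2.54 ± 0.49), and B3galt2, a galactosyltransferase (-2.60 ± 0.26).

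The smallest adjusted p belonged to Lgr6, a receptor for R-spondins, at 82.5 to 151 CPM (median 118) in Ctrl_RT and 363 to 508 CPM (median 426) in MetR_CE (1.87 ± 0.10, adjusted p = 6.42e-14). Prdx6, a peroxiredoxin, was at 155 to 189 CPM (median 163) in Ctrl_RT and 316 to 344 CPM (median 323) in MetR_CE (0.97 ± 0.05, adjusted p = 1.36e-13), and Got1, the cytosolic aspartate aminotransferase, at 15.5 to 37.1 CPM (median 29.4) in Ctrl_RT and 116 to 147 CPM (median 127) in MetR_CE (2.18 ± 0.13, adjusted p = 4.34e-13). These genes were picked by the smallest p of this comparison, a rule that favours narrow spread within groups and distance between them. Tmx4, a thioredoxin-like membrane protein, rose by 1.18 ± 0.07 and Trak2, an adaptor of mitochondrial transport, by 0.76 ± 0.04. Among the lower genes Pla2g16, a phospholipase of adipocytes, was at 133 to 174 CPM (median 152) in Ctrl_RT and 69.2 to 78.0 CPM (median 73.7) in MetR_CE (-1.05 ± 0.06, adjusted p = 3.38e-13), and Pid1, which dampens insulin signalling (-2.28 ± 0.13), Grik5, a glutamate receptor subunit (-1.77 ± 0.11), Mettl7a1 (-0.999 ± 0.06) and Arrb1, an arrestin (-1.40 ± 0.09), fell.

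MetR_CE was then set against each stimulus alone, which asks what the second stimulus adds. These comparisons share the MetR_CE libraries with the one above. Against cold alone (Ctrl_CE) 392 genes were called (1.64%), 115 (0.481%) of them higher and the rest (1.16%) lower. Against MetR alone (MetR_RT) 2041 genes were called (8.53%), 815 (3.41%) higher and 1226 (5.13%) lower. The numbers against cold alone depend on a few libraries: 84 genes were called without the 6 libraries of high muscle level, which leaves 3 Ctrl_CE mice, and 5 with the 3 mice regrouped by their treatment tag. Against MetR alone 950 genes were called with the groups set by the tag.

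Of the 31 thermogenic genes, 11 rose against MetR_RT and none fell, whereas against Ctrl_CE none rose and 2 fell, with a median log2 difference of -0.06. At an unadjusted edgeR p under 0.05, 2 of them were higher and 7 lower against Ctrl_CE. The mean level of Ucp1 was 6954 ± 925 CPM (SD) in Ctrl_RT and 8331 ± 805 with MetR alone, against 12643 ± 918 with cold alone and 13379 ± 1112 in MetR_CE. Its log2 difference was 0.68 ± 0.07 against MetR_RT (adjusted p = 4.57e-08) and 0.08 ± 0.08 against Ctrl_CE (adjusted p = 0.634). Dio2 differed from MetR_RT by 2.73 ± 0.25 and from Ctrl_CE by -0.17 ± 0.24, and Ppargc1a by 2.27 ± 0.19 and -0.06 ± 0.19. The pair called lower against Ctrl_CE was Ckb (-1.26 ± 0.25, adjusted p = 0.00349) and Gk (-0.59 ± 0.18, adjusted p = 0.0487). Ckb remained called without the libraries of high muscle level, and neither gene was called by the tag.

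**Figure D4:**
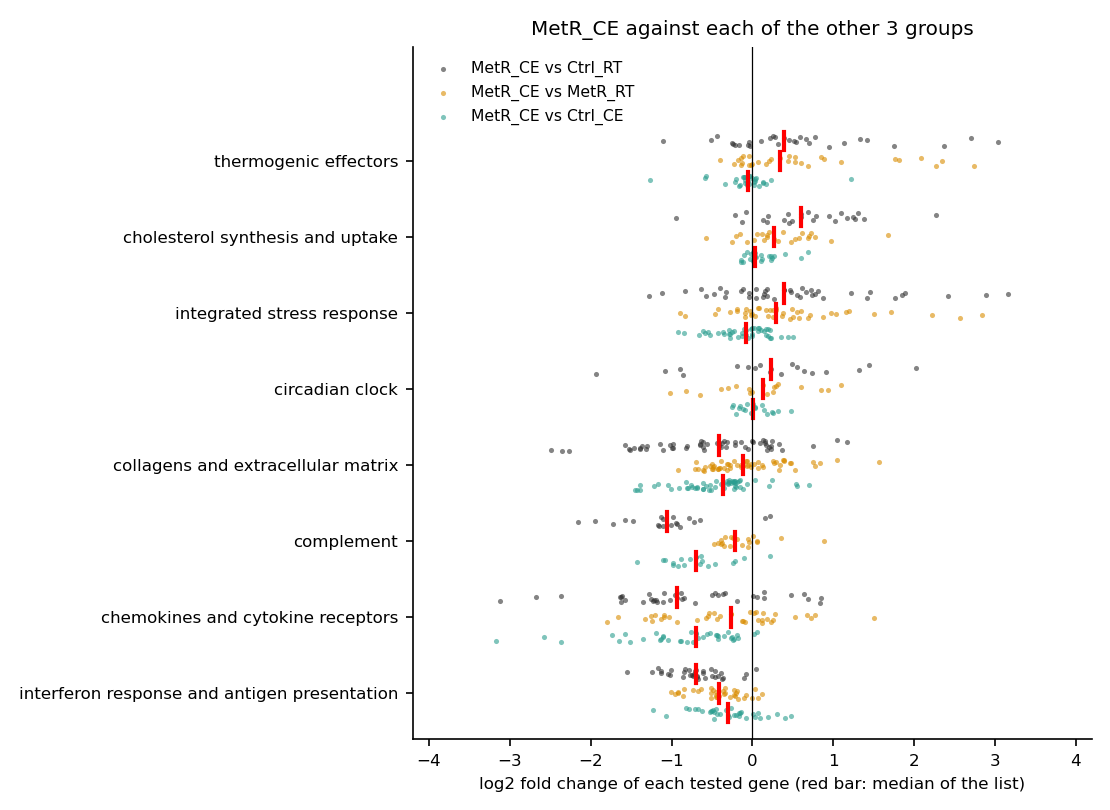
Log2 fold change of each gene (points) of 8 lists in MetR_CE against Ctrl_RT, MetR_RT and Ctrl_CE, with a red bar at the median of the list. For the thermogenic effectors the medians are 0.39 against Ctrl_RT and -0.06 against Ctrl_CE, and for complement -1.05 against Ctrl_RT and -0.70 against Ctrl_CE.

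Against MetR_RT 8 of 45 genes of fatty acid uptake and oxidation rose and 3 fell, among them Lpl (1.31 ± 0.11, adjusted p = 5.2e-10), and against Ctrl_CE none rose and 4 fell. Cpt1a, at means of 58.8 ± 13.2 CPM (SD) in Ctrl_CE and 34.8 ± 3.52 in MetR_CE, was lower with both stimuli than with cold alone (-0.76 ± 0.11, adjusted p = 0.000162), and so was Bdh1 (-1.39 ± 0.30, adjusted p = 0.00468). With the groups set by the tag neither was called (adjusted p = 0.216 and 0.46). Without the libraries of high muscle level Cpt1a differed by -0.56 (adjusted p = 0.0151), just under the fold threshold. Nnmt was at means of 73.6 ± 26.7 CPM (SD) in Ctrl_CE and 23.5 ± 11.8 in MetR_CE (-1.64 ± 0.30, adjusted p = 0.0013, and not called by the tag, adjusted p = 0.494). Its level in MetR_RT, 2.61 ± 1.18 CPM, was the lowest of the 4 groups. In cholesterol synthesis 7 genes rose against MetR_RT, Hsd17b7 (1.68 ± 0.11) among them, and only Fdft1 was called against Ctrl_CE (0.59 ± 0.15, adjusted p = 0.0201). That call was lost by the tag (0.35, adjusted p = 0.55), without the 3 libraries with another tag (0.51, adjusted p = 0.093) and without the libraries of high muscle level (0.52, adjusted p = 0.2).

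Of the 43 stress response genes 10 rose and 1 fell against MetR_RT, and 0 of them were called against Ctrl_CE by edgeR, where 11 had an unadjusted p under 0.05, 5 higher and 6 lower. Fgf21 differed from MetR_RT by 2.22 ± 0.20 (adjusted p = 1.93e-09) and from Ctrl_CE by 0.17 ± 0.18 (adjusted p = 0.686). All 11 chaperones called against MetR_RT were higher. Suox, at means of 66.4 ± 6.03 CPM (SD) in MetR_RT and 38.9 ± 2.84 in MetR_CE, was lower than with MetR alone (-0.77 ± 0.06, adjusted p = 3.7e-10), as were Ypel3 (-0.73 ± 0.06) and Mettl7a1 (-0.83 ± 0.06). Fam131c (2.22 ± 0.15), Tbc1d9 (0.96 ± 0.06) and Mapkapk2, a kinase downstream of p38 (1.03 ± 0.07), were among the genes with the smallest adjusted p on the higher side.

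Matrix, complement and immune lists held genes that were lower in MetR_CE than with cold alone. Of the 57 matrix genes 16 were lower than in Ctrl_CE and none higher (median log2 difference -0.36), of the 20 complement genes 11 (-0.70), of the 39 chemokines and receptors 8 (-0.70) and of the 35 interferon and antigen presentation genes 5 (-0.31). Mmp2 was at means of 15.96 ± 3.06 CPM (SD) in Ctrl_CE and 6.81 ± 2 in MetR_CE (-1.22 ± 0.17, adjusted p = 9.12e-05). C4b was at 24.1 ± 15.3 and 8.75 ± 4.95 CPM (SD), a log2 difference of -1.43 ± 0.35 (adjusted p = 0.0142). Of the macrophage markers 6 of 12 were lower, Mrc1 (-1.11 ± 0.19) and Adgre1 (-1.51 ± 0.28) among them, and of the fibroblast markers 4 of 12, and their part was not tested. Srpx (-1.46 ± 0.21), Ppp1r1a, an inhibitor of protein phosphatase (-0.70 ± 0.10), and Adamts15 (-1.10 ± 0.17) had small adjusted p as well. These counts depend on how the libraries named above are treated. Without those of high muscle level, 1 matrix gene, no complement gene, 2 chemokine genes and no interferon gene were called lower. By the tag 2, 0, 1 and 0 were, and with the 3 libraries with another tag left out 15, 10, 10 and 6 were. Of the macrophage and fibroblast markers 1 and 0 were called without the libraries of high muscle level, where Mrc1 had an adjusted p of 0.0503. By the tag 0 and 0 were, and with the 3 libraries with another tag left out 5 and 4 were. Mmp2, Adgre1, Srpx, Ppp1r1a and Adamts15 remained called without the libraries of high muscle level, and none of them by the tag. Against MetR_RT 0 of the 20 complement genes were called by edgeR, and 3 had an unadjusted p under 0.05.

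Few genes were higher with both stimuli than with cold alone. Acsm3, an acyl-CoA synthetase of medium chains, was at means of 64.8 ± 16.9 CPM (SD) in MetR_RT, 7.42 ± 1.82 in Ctrl_CE and 19.7 ± 7.18 in MetR_CE, so that it lay between both single stimuli (1.42 ± 0.22 against Ctrl_CE, adjusted p = 0.000306). Acss3, a mitochondrial synthetase of short chains, showed the same order (0.96 ± 0.12, adjusted p = 4.46e-05). The soluble cyclase Adcy10 rose by 0.61 ± 0.16, Ighm by 1.42 ± 0.33 and the predicted gene Gm35986 by 0.97 ± 0.15. Without the libraries of high muscle level Acsm3, Acss3, Ighm and Gm35986 remained called, and by the tag none was.

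The interaction tests whether the effect of MetR differed between 4 °C and 22 °C. At 4 °C that effect follows 1 more day of diet, so the day and the cold cannot be told apart here either. The interaction was called for 89 genes (0.372%), 59 (0.247%) higher and 30 (0.125%) lower. Lower means that both stimuli together gave less than the sum of the log2 effects of each. Adcy5 was at a mean of 15.8 ± 3.37 CPM (SD) in Ctrl_RT, 3.37 ± 0.697 with MetR, 3.73 ± 0.586 with cold and 3.75 ± 1.84 with both. All 3 groups with a stimulus were below Ctrl_RT, and the interaction was 2.27 ± 0.30 (adjusted p = 0.000435). Mthfd2 was at 4.22 ± 0.943, 18.6 ± 8.79, 50.9 ± 27.7 and 37.97 ± 5.26 CPM (SD) in the same order (-2.56 ± 0.51, adjusted p = 0.0117). Kng2, at 65.7 ± 7.84, 144 ± 17.6, 147 ± 20.4 and 177 ± 10.3 CPM (SD), had an interaction of -0.87 ± 0.12 (adjusted p = 0.000469). Lgr6 (-0.97 ± 0.13, adjusted p = 0.000435), Cpt1a (-1.01 ± 0.16), Nr1d1 (-0.78 ± 0.12) and Pdss1, of coenzyme Q synthesis (-0.68 ± 0.12), were called in the same direction. Hcar2 (2.11 ± 0.35), B3galt2 (2.15 ± 0.38), Tlr5, the flagellin receptor (1.89 ± 0.36), and Ppa1, a pyrophosphatase (1.05 ± 0.15), went the other way. All 11 genes named here remained called without the libraries of high muscle level, and none by the tag, under which 1 gene had a called interaction. No thermogenic, complement or matrix gene had one in the main fit, in which Ucp1 gave -0.18 ± 0.11 (adjusted p = 0.528).

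**Figure D5:**
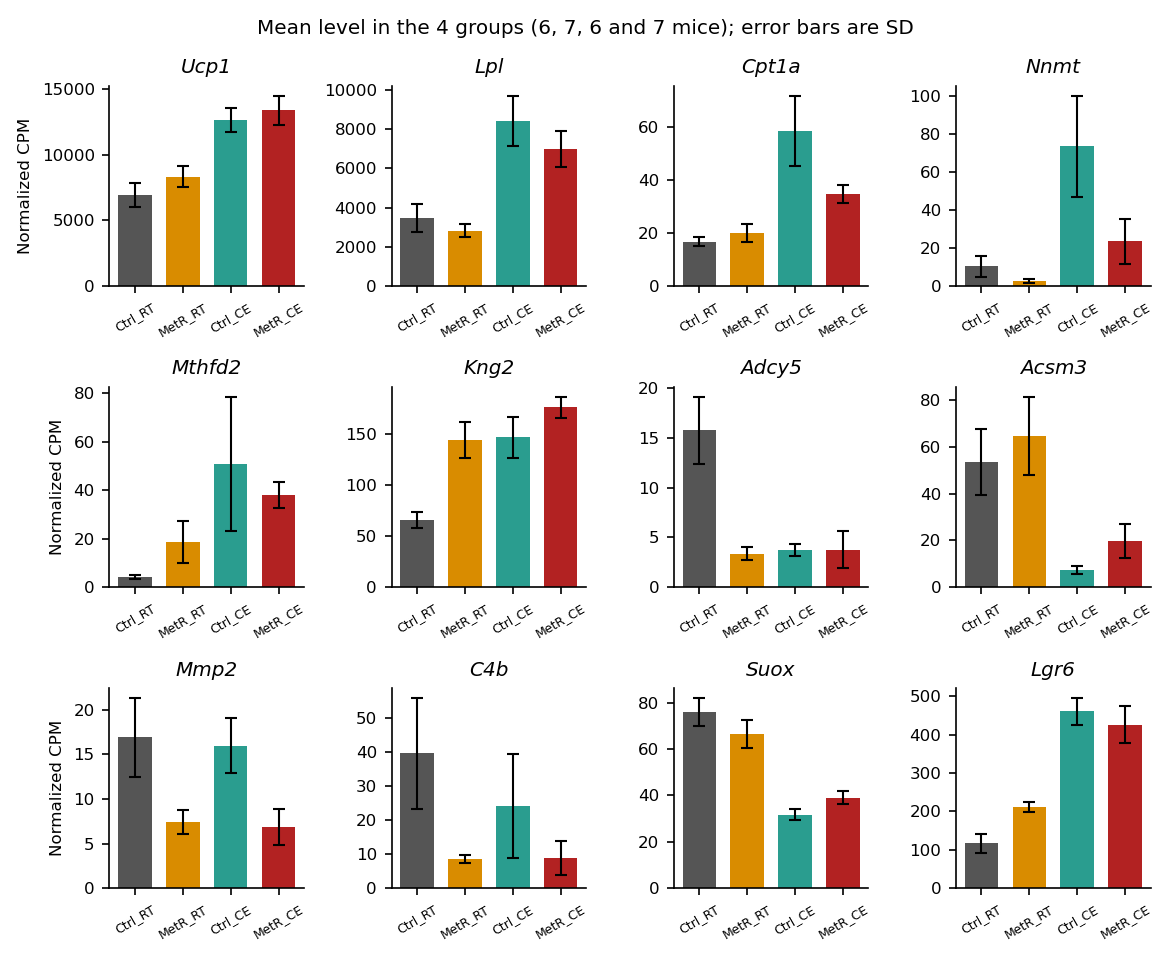
Mean normalized CPM (bars, SD as error bars) of 12 genes in Ctrl_RT (n = 6), MetR_RT (n = 7), Ctrl_CE (n = 6) and MetR_CE (n = 7). Ucp1 and Lpl are high in both cold groups, Nnmt and Mmp2 are higher in Ctrl_CE than in MetR_CE, and Adcy5 is low in all 3 groups that received a stimulus.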

How the data were processed

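iBAT RNA was sequenced as paired-end polyadenylated libraries, 1 per mouse. Per the labels and the study's methods, reads were aligned with STAR 2.7.9a to the mouse genome (mm10) and quantified with featureCounts 2.0.3 and, in parallel, Salmon 1.9.0. The deposited values are whole-number gene counts. The name of the table points to Salmon, so they may be rounded estimates, but which tool made it is not stated, and its gene identifiers are partly newer than the GENCODE release that the methods name. The table holds 56884 gene rows, of which 51948 carry a symbol, and all of its columns were matched to samples.

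Genes with at least 10 counts in total entered one edgeR quasi-likelihood fit (edgeR 4.0.16, R 4.3.3, limma 3.58.1) with TMM normalization over 26 iBAT libraries of 4 groups, with no covariates. Groups follow the sample titles. The study excluded 1 Ctrl_CE iBAT sample that it does not name. Replicate 5 was taken to be that sample, as an inference from the mean counts in the study's supplementary table, and was left out. Levels are TMM-normalized CPM. The threshold was a Benjamini-Hochberg adjusted p of 0.05 together with a 1.5-fold difference. Replicates are different mice.

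The comparison, the 19 gene lists and 11 marker lists were chosen with earlier results of these data known. The genes named are list members, the 15 largest called changes per direction with a mean of at least 1 CPM and no overlap, the 10 smallest p per direction, and the 5 smallest p per direction of each further comparison, and those named outside this rule are said to be so. Some genes that the rule takes in are counted in their lists but not reported by name here.

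Alternatives were RLE factors, other filters, glmTreat, DESeq2 1.42.0 without and with apeglm 1.24.0 shrinkage, all 27 libraries, groups by the treatment tag, leaving out the 3 libraries with another tag, a replicate block, a skeletal muscle covariate, only the 13 libraries compared, and leaving out each of them. Leaving out the libraries of high muscle level was chosen after seeing the data. The fit was tested on simulated data. Depth per library is given in the report, and counting error is part of the model.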

Additional observations from a re-analysis of the deposited data

Results flagged for a closer look

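In 18 of 360 gene and group combinations (5%, over 180 genes), 1 mouse lay farther from the others of its group than Dixon's 95% limit allows, and chance flags about 1 in 20. High mice of Ctrl_RT were replicate 1 for Ckb (70.7 CPM), Manf (49.8 CPM) and Gmpr (356 CPM), replicate 2 for Gdf15 (0.688 CPM), replicate 4 for Igf1 (20.6 CPM), and replicate 5 for Mat1a (4.95 CPM), C1qa (20.9 CPM) and Tmx4 (79.9 CPM). Low mice of Ctrl_RT were replicate 1 for Sik1 (20.8 CPM), replicate 4 for Esrra (237 CPM), replicate 5 for Igtp (7.35 CPM), and replicate 6 for Hcar2 (2.66 CPM), Psat1 (2.38 CPM), Kng2 (50.98 CPM) and Ighm (2.90 CPM). In MetR_CE, replicate 4 was high for Hspa8 (1277 CPM), replicate 2 was high for C3 (775 CPM), and replicate 6 was low for Adgre1 (1.15 CPM).

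For 23 named genes the effect of MetR differed between the cold and room temperature groups by the edgeR interaction test. The genes checked were all called in MetR_CE against Ctrl_RT, and some were named for a small interaction p. Ctrl_RT mice enter that comparison and the interaction with opposite signs, so their spread alone favours opposite directions. Its part in the directions below was not tested. Interactions below 0, on the log2 scale, were those of Mthfd2 (-2.56), Pla2g2e (-1.54), Pimreg (-1.49), Npr3 (-1.13), Cpt1a (-1.01), Lgr6 (-0.97), Elovl3 (-0.87), Kng2 (-0.87), Got1 (-0.79), Nr1d1 (-0.78), Hsd17b7 (-0.69) and Pdss1 (-0.68), all of them called higher in MetR_CE against Ctrl_RT. Interactions above 0 were those of Adcy5 (2.27), B3galt2 (2.15), Hcar2 (2.11), Car3 (2.04), Tlr5 (1.89), Hcar1 (1.26), Acsm3 (1.14), Ppa1 (1.05), Fdft1 (0.96) and Acss3 (0.86), all called lower in MetR_CE, and Hsp90aa1 (0.93), called higher. By the treatment tag none of these interactions was called. Without the libraries of high muscle level 9 of them were lost, those of Acsm3, Acss3, Car3, Fdft1, Hsd17b7, Hsp90aa1, Npr3, Pimreg and Pla2g2e, and without the 3 libraries with another tag 8, those of Acsm3, Acss3, Car3, Fdft1, Hsd17b7, Hsp90aa1, Pla2g2e and Tlr5.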

How the results depend on the processing

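The 180 genes checked were all called in MetR_CE against Ctrl_RT, and part of them were named for a small p or no overlap in it. Of these, 134 to 180 kept their call under each alternative, a share that this choice favours. Of all 3506 calls, 2502 were lost with glmTreat and 827 without the libraries of high muscle level. With filterByExpr, which tested 15183 genes, 772 were lost, and by the tag 548. No shared call changed sign. The count of 3506 called genes was 1004 when glmTreat tested against the fold threshold itself, lay between 2862 and 3523 under the other settings, and ran from 3218 to 3521 when 1 library was left out. Against Ctrl_CE, where 115 genes were called higher and the rest lower, 392 in all, glmTreat called 0 (791 had an unadjusted p under 0.05, and DESeq2 called 479), grouping by the tag 5, and leaving out the libraries of high muscle level 84. Leaving out the 3 libraries with another tag called 341 there. Against MetR_RT, with 2041 genes, glmTreat called 328 and grouping by the tag 950. Of the interaction, with 89 genes, filterByExpr called 136, DESeq2 198, apeglm 140, glmTreat 1, grouping by the tag 1 and leaving out the 3 libraries with another tag 44. Replicate numbers did not pair the mice (correlations of same-numbered mice between groups from -0.58 to 0.53), and a replicate block called 3208, 378, 1940 and 68 genes. The cause of these changes was not tested. Depth limits genes below about 1 CPM, and the single-stimulus comparisons rest on 6 or 7 mice a group.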

Other observations

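Some genes outside the rule for named genes were looked at after their values were seen. The mitochondrial ribosomal RNAs, encoded in the mitochondrial genome, were higher in MetR_CE although the library preparation selects polyadenylated RNA. The 12S RNA mt-Rnr1 was at 1703 to 3097 CPM (median 2334) in Ctrl_RT and 7935 to 10718 CPM (median 9187) in MetR_CE (log2 fold change 1.997 ± 0.13, adjusted p = 1.28e-12 by edgeR's quasi-likelihood test). The 16S RNA mt-Rnr2 was at 4644 to 8168 CPM (median 6303) in Ctrl_RT and 16648 to 22853 CPM (median 18972) in MetR_CE (1.61 ± 0.13, adjusted p = 6.2e-11). Neither overlapped between groups. Summed, both made up 6347 to 11001 CPM in Ctrl_RT and 24656 to 33571 CPM in MetR_CE, whereas the 13 mitochondrial protein genes summed to 115887 to 134414 and 94792 to 111397 CPM, and all 30 mitochondrial genes to 122974 to 142574 and 122868 to 143645 CPM. The same RNAs differed from MetR_RT by 1.48 ± 0.12 and 1.12 ± 0.12 and from Ctrl_CE by 0.09 ± 0.12 and 0.10 ± 0.12 (adjusted p = 0.755 and 0.737).

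Ffar4, a receptor for long chain fatty acids, was at 8.13 to 53.2 CPM (median 17.8) in Ctrl_RT and 75.5 to 146 CPM (median 108) in MetR_CE (2.21 ± 0.33, adjusted p = 3.44e-06). Hmox1, heme oxygenase, rose by 1.48 ± 0.19 and Tfrc, the transferrin receptor, by 1.21 ± 0.19, both genes of iron handling and both without overlap. Liver transcripts stood in replicate 5 of Ctrl_RT: Alb was called lower in MetR_CE (-4.08 ± 1.09, adjusted p = 0.00419) with that mouse and had a log2 fold change of -0.81 (adjusted p = 0.549) without it.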
